A study of Mus musculus with 4 samples.

Results

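The genes described here are 40 genes known to mark the endothelium, the cell layer that lines blood and lymph vessels, taken from a fixed list of pan-endothelial, arterial, venous and lymphatic names. A gene was counted as measured where the array annotation paired a probe set with that gene alone, which held for 37 of the 40 genes among 30701 genes measured in the series. Each of the 37 had 1 such probe set. Egfl7 shared its probe set with the microRNA gene Mir126a, Cyyr1 shared its probe set with Gm2541, and Tspan7 had no probe set under its name in the annotation used here. Most members are named for vessels of every kind, while 6 were grouped as arterial, 1 (Slc6a2) as venous and 1 (Prox1) as lymphatic.

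Endothelial cells hold to each other through adherens junctions built on VE-cadherin (Cdh5) and tight junctions that contain claudin 5 (Cldn5), and these contacts set how much fluid and how many blood cells leave the vessel. ETS factors such as Erg and Fli1, the SOXF factors Sox7, Sox17 and Sox18, and the flow-responsive factors Klf2 and Klf4 keep endothelial genes active. Arterial identity is tied to Notch signalling and Sox17, and lymphatic identity to Prox1 and Sox18. In the lung most endothelium belongs to the alveolar capillaries.

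Expression was measured on Affymetrix arrays in whole lung of adult, age-matched mice. The WT group was 2 lungs of the strain labelled C57/BL6, and the SCD group, for sickle cell disease, was 2 lungs of the strain labelled SCD Tg. The SCD transgene line, its genetic background, the sex of the animals and the processing batches are absent from the labels, so that disease, strain background and any batch between the groups cannot be told apart. No label beyond the 2 lungs per group says that the arrays are separate animals, and p-values measure the spread between these samples. In whole lung, fewer endothelial cells and less RNA per cell cannot be told apart.

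The values are log2 expression values as deposited, and differences are SCD minus WT on that scale with the moderated standard error (SE) from limma, n = 2 arrays per group. A gene is said to have risen or fallen where limma's p fell under 0.05 after Benjamini-Hochberg adjustment across the 30701 genes. The lung genes Sftpc and Scgb1a1 stood at 19.93, the highest value in the table, on all 4 arrays. At that ceiling a difference between the groups could not be seen for them. Ager, a marker of alveolar type 1 cells, lay between 12.81 and 13.17. Between replicates, the median gap of the 37 members was 0.16 for WT and 0.099 for SCD. The largest gap was that of Slc6a2 in WT, at 0.70. For 5 members (Jam3, Sox18, Prox1, Sox7 and Gja4) at least 1 array lay at or below the median of that array's intron control probes, so that these were dim.

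Of the 37 measured members, 7 fell (Clec14a, Scn7a, Hey1, Sox17, Esm1, Calcrl and Cdh5), 2 rose (Mmrn2 and Cd34) and 28 did not pass the test in limma. Over all genes, 3.09% passed, 2.46% higher and 0.635% lower in SCD lung; among the members these shares were 24.3%, 5.41% and 18.9%. The median difference of the members was -0.12, with 23 below 0 and 14 above, beside 0.0019 for all genes. Members ranged from -1.07 (Clec14a) to 1.66 (Mmrn2). Both SCD values lay below both WT values for 19 members and above them for 8, and the groups overlapped for 10. The groups did not overlap for 73.0% of members (51.4% below and 21.6% above), beside 47.7% of all genes (22.5% below and 25.3% above). The members were listed with earlier results of these arrays known, so that the counts describe these genes and give no independent evidence of a direction.

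**Figure D1:**
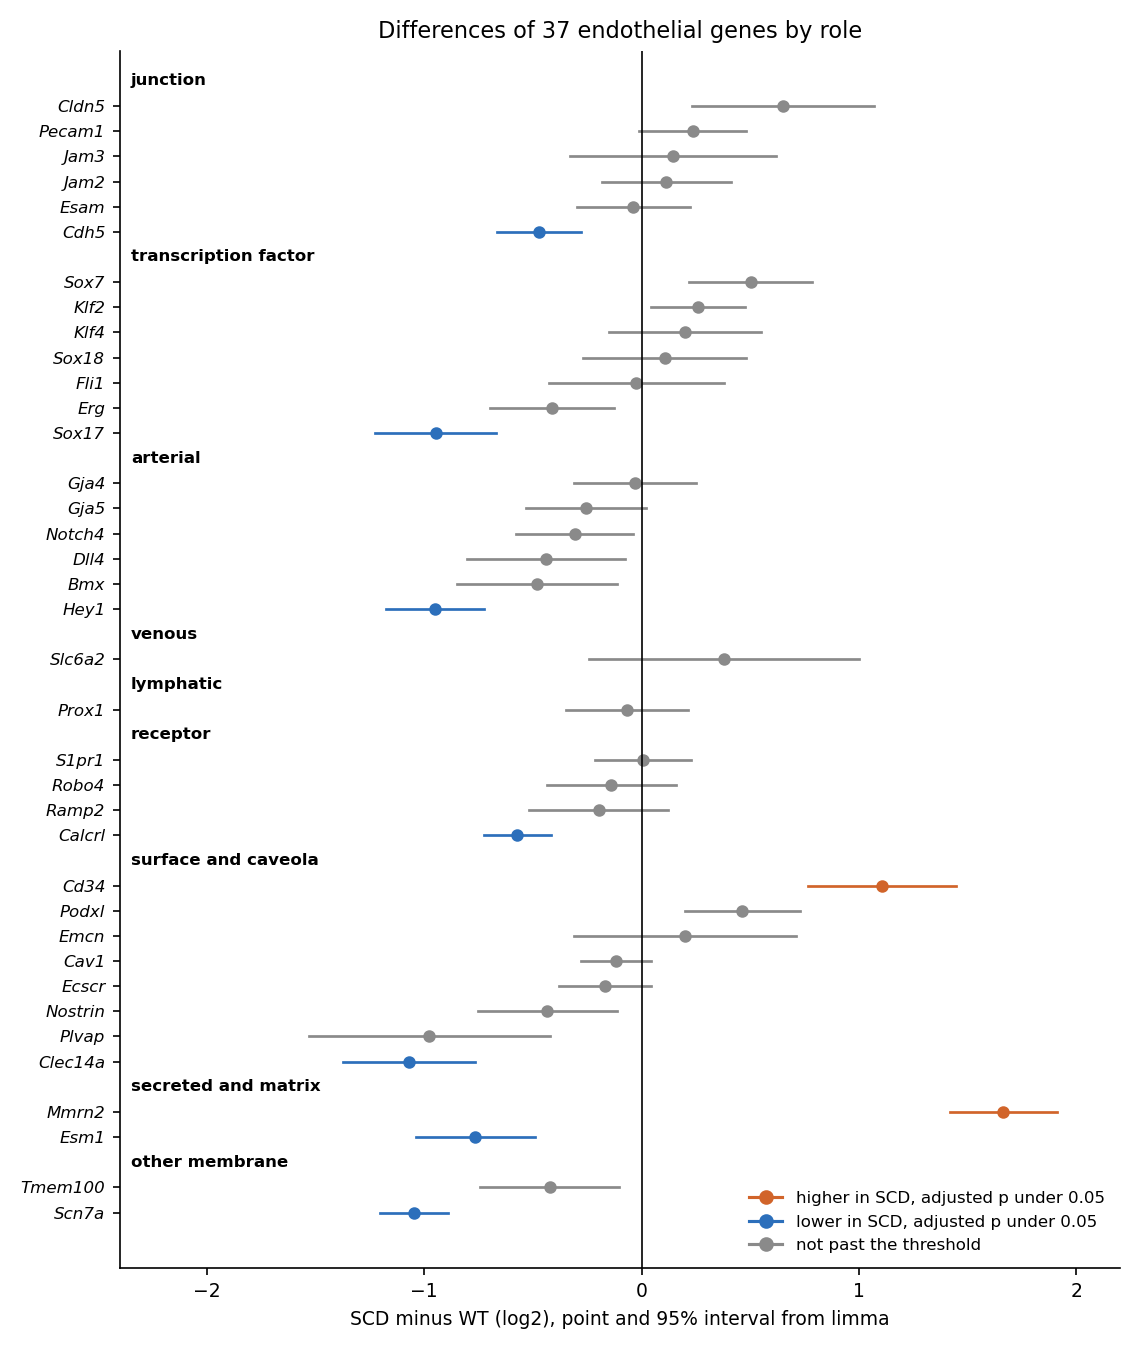
Differences between SCD and WT lung of the 37 measured endothelial genes on the log2 scale, grouped by role; points are limma estimates and bars their 95% intervals, with n = 2 arrays per group. The 7 genes that fell and the 2 that rose are coloured; 28 others are grey, and the arterial genes run from -0.95 (Hey1) to -0.029 (Gja4, which lies above 0 with repeated quantile normalization or equal array medians).

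The 9 calls rest on few arrays. With either SCD array left out, limma called 0 of the 30701 genes; 3302 genes had an unadjusted p under 0.05 without SCD replicate 1 and 3267 without SCD replicate 2, 14 of the 37 members among them in either case, and the lone SCD array was assumed to vary like the WT arrays. Not all of the 9 genes kept their call with 1 WT array left out, as given below for Cdh5, Sox17 and Esm1. Their differences ran from -1.19 (Clec14a) to 1.68 (Mmrn2) without WT replicate 1. Without WT replicate 2 they ran from -1.04 (Scn7a) to 1.65 (Mmrn2). In all 4 of these fits each of the 9 genes kept the sign of its difference.

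**Figure D2:**
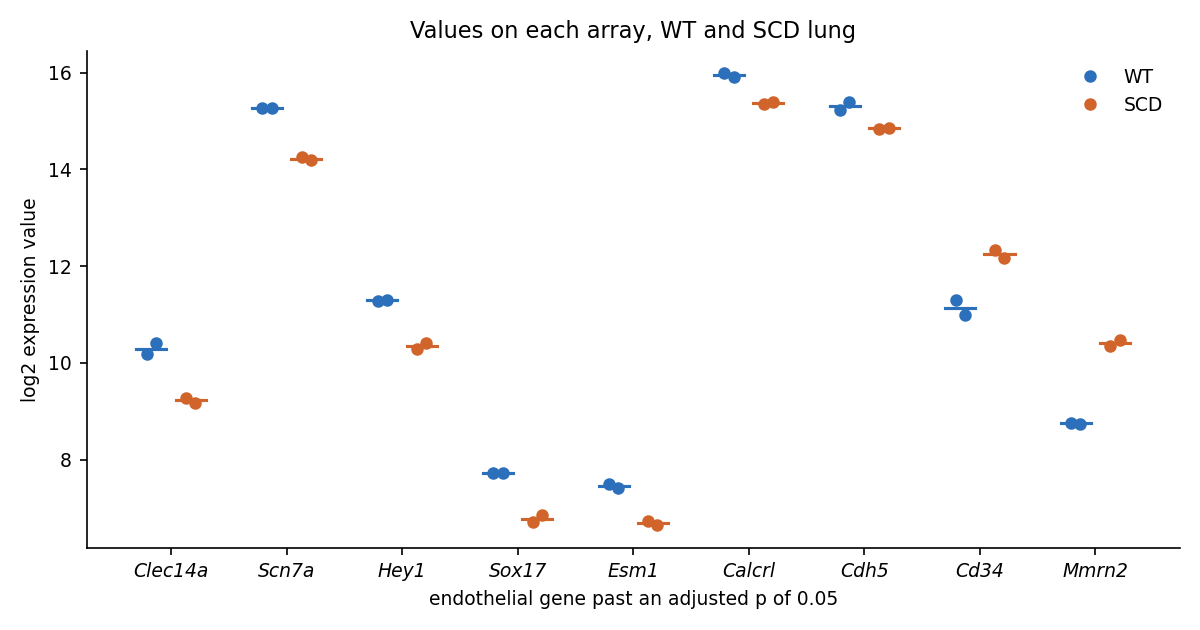
Log2 expression value of the 9 endothelial genes that passed an adjusted p of 0.05, on each WT array (blue) and each SCD array (orange), with group means as bars; values of different genes come from different probes and are not compared. For each of the 7 genes at left both SCD points lie below both WT points, and for Cd34 and Mmrn2 both lie above.

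Among 6 genes of endothelial junctions, Cdh5 fell and 5 did not pass. Cdh5, which encodes VE-cadherin, measured 15.24 and 15.39 in WT lung and 14.83 and 14.86 in SCD lung. Both SCD values lay below both WT values, by 0.38 or more. The difference was -0.47 ± 0.08 (1.39-fold lower; adjusted p = 0.0491). This call was the closest to the threshold, and over 11 alternative settings with all arrays its adjusted p ranged from 0.0153 to 0.142, missing the threshold without the intensity trend (0.142), with equal array medians (0.105), with a robust prior (0.0694), with repeated quantile normalization (0.0558) and without genes of identical values (0.0554). Without WT replicate 2 its adjusted p was 0.0611, and without SCD replicate 1 or 2 it was 0.299 or 0.278.

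The other junction genes gave values on both sides of 0. Cldn5, the main tight junction claudin of endothelium, had WT values of 9.99 and 10.42 and SCD values of 10.93 and 10.79, without overlap. Its difference was 0.65 ± 0.16, which did not pass (adjusted p = 0.136). Pecam1, an adhesion molecule of endothelial contacts that platelets and leukocytes also carry, measured 11.93 and 12.11 in WT and 12.21 and 12.30 in SCD (0.24 ± 0.10; adjusted p = 0.319). The groups overlapped for Esam, Jam2 and Jam3, adhesion molecules of the immunoglobulin family, with differences of -0.038, 0.11 and 0.14. The change in Cldn5 relative to Cdh5 within arrays was 1.12 log2 units, and that in Pecam1 relative to Cdh5 was 0.71. These contrasts between genes are given as values and were not tested.

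Of 7 transcription factor genes, Sox17 fell and 6 did not pass. Sox17, a SOXF factor needed for arterial identity, measured 7.72 and 7.73 in WT and 6.71 and 6.85 in SCD lung. Its groups were 0.87 apart. The difference was -0.95 ± 0.11 (1.93-fold lower; adjusted p = 0.0191), and it passed in all 11 alternative settings that used all arrays, with adjusted p from 0.00595 to 0.0325. Without any 1 array it missed the threshold, with adjusted p of 0.0787 and 0.0634 without WT replicate 1 and 2 and of 0.189 and 0.149 without SCD replicate 1 and 2.

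The other SOXF genes did not pass. Sox7 measured 6.21 and 6.29 in WT and 6.69 and 6.81 in SCD, without overlap and above WT (0.50 ± 0.11; adjusted p = 0.104). It passed with protein-coding genes alone (adjusted p = 0.0461), within a range of 0.0461 to 0.165. Sox18, a SOXF factor also active in lymphatic development, overlapped between the groups (0.11 ± 0.15). The change in Sox7 relative to Sox17 within arrays was 1.45 log2 units and that in Sox17 relative to Sox18 was -1.05. Sox7 and Sox18 were among the dim members.

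Among the ETS and KLF genes, Erg measured 9.95 and 10.15 in WT and 9.58 and 9.69 in SCD (-0.41 ± 0.11; adjusted p = 0.157). Erg keeps endothelial genes active and its groups did not overlap, whereas those of its relative Fli1 did (-0.024 ± 0.158). Klf2, induced by laminar flow, lay at 10.45 and 10.53 in WT and at 10.73 and 10.76 in SCD (0.26 ± 0.08; adjusted p = 0.224). Klf4, another flow-responsive factor, gave 0.20 ± 0.14 with overlapping groups, and its difference was 0.043 without WT replicate 1 and 0.35 without WT replicate 2.

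**Figure D3:**
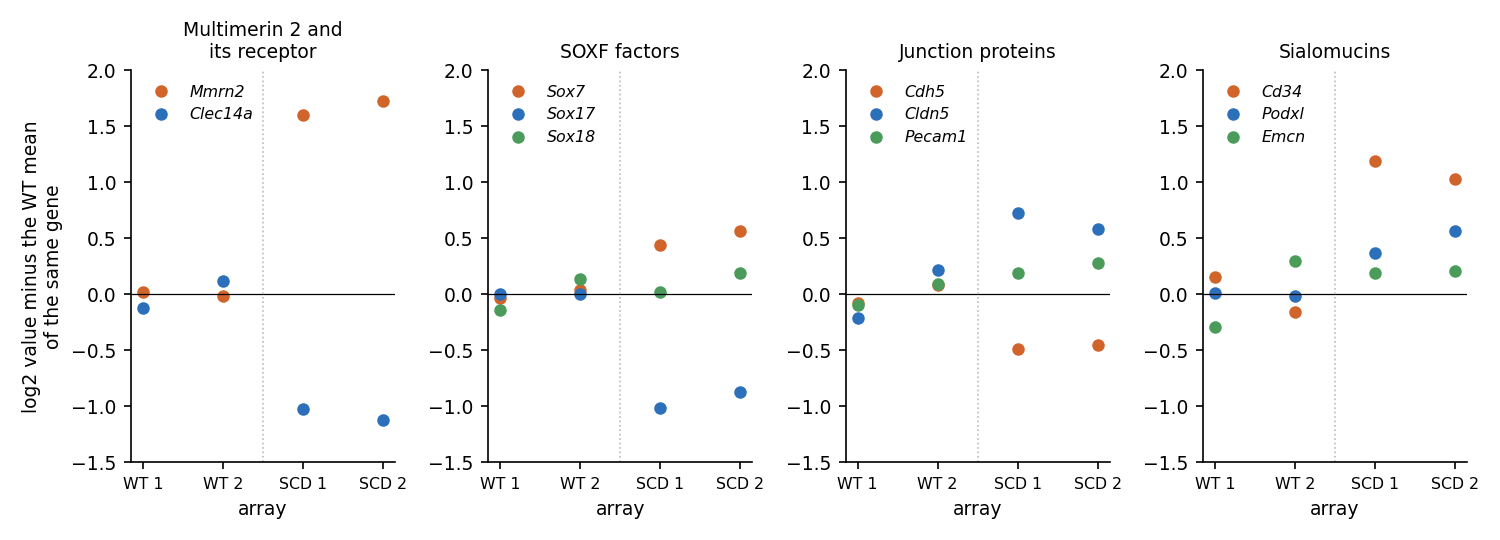
Log2 value of related endothelial genes on each array minus the WT mean of the same gene. The panels hold multimerin 2 (Mmrn2) with the receptor encoded by Clec14a, the SOXF factors, 3 junction genes and 3 sialomucin genes. Mmrn2 and Clec14a, Sox7 and Sox17, and Cldn5 and Cdh5 lie on opposite sides of 0 on both SCD arrays; of these, Sox7 and Cldn5 did not pass the test.

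Of 6 arterial genes, Hey1 fell and 5 did not pass, with a median difference of -0.37. Hey1, a transcriptional repressor induced by Notch, measured 11.28 and 11.31 in WT and 10.28 and 10.40 in SCD lung. Its groups were 0.87 apart, with a difference of -0.95 ± 0.09 (1.93-fold lower; adjusted p = 0.0110). It passed in all 11 settings with all arrays and without either WT array, but without SCD replicate 1 or 2 its adjusted p was 0.140 or 0.118.

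All 6 arterial differences were below 0, although that of Gja4 was 0.0022 with repeated quantile normalization and 0.0019 with equal array medians. Dll4, the Notch ligand of arterial endothelium, had values of 8.07 and 8.33 in WT and 7.87 and 7.66 in SCD (-0.44 ± 0.14; adjusted p = 0.220). Notch4, a Notch receptor found mainly in endothelium, had values of 7.49 and 7.59 in WT and 7.27 and 7.19 in SCD (-0.31 ± 0.11; adjusted p = 0.242). Bmx, a kinase of arterial endothelium and the endocardium, gave 7.26 and 7.17 in WT and 6.58 and 6.89 in SCD (-0.48 ± 0.14; adjusted p = 0.193). None of these 3 genes overlapped between the groups, and none passed. The gap junction gene Gja5 was also lower without overlap (-0.26 ± 0.11; adjusted p = 0.332), and Gja4, which encodes another connexin of arterial endothelium, overlapped (-0.029 ± 0.110).

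The single venous and the single lymphatic gene did not pass. Slc6a2, the noradrenaline transporter, which marks lung vein endothelium and is also expressed by sympathetic neurons, measured 6.79 and 7.49 in WT and 7.54 and 7.50 in SCD (0.38 ± 0.24; adjusted p = 0.526). The WT arrays differed from each other by more than the groups did, and the groups were 0.010 apart. Leaving out 1 array at a time, its difference ranged from 0.027 to 0.73. Of 12 sympathetic neuron and glia markers measured, S100b rose and 0 fell, and Th, Dbh and Ddc had differences of -0.14, -0.081 and -0.18. Of those 12, 9 were dim on all arrays. The mean of the list was 5.36 and 5.35 in WT and 5.56 and 5.51 in SCD, beside a median difference of 0.059.

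Prox1, the factor that sets lymphatic identity, measured 6.09 and 6.18 in WT and 6.09 and 6.04 in SCD, with overlapping groups. The 95% interval of its difference ran from -0.35 to 0.21, around -0.067, at a dim probe set. Prox1 is also expressed in heart muscle. Of 23 cardiac muscle markers measured, 4 rose (Nppa by 2.88 ± 0.13, Myl7 by 1.20, Cox8b by 0.83 and Csrp3 by 0.69) and 0 fell. Their list mean was 7.44 and 7.42 in WT and 7.86 and 7.82 in SCD, beside a median difference of 0.19. The part of these markers in the Prox1 value was not tested.

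Of 4 receptor genes, Calcrl fell and 3 did not pass. Calcrl encodes the receptor that binds adrenomedullin together with the accessory protein made by Ramp2, a pair needed for vessel integrity. Calcrl measured 15.98 and 15.90 in WT and 15.35 and 15.39 in SCD, without overlap. The difference was -0.57 ± 0.06 (1.49-fold lower; adjusted p = 0.0154). Over 11 settings with all arrays its adjusted p ranged from 0.00322 to 0.163, missing the threshold with repeated quantile normalization (0.163) and without the intensity trend (0.0824), and without SCD replicate 1 or 2 it was 0.167 or 0.152.

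Ramp2 had values of 8.98 and 9.21 in WT and 8.82 and 8.98 in SCD, with groups 0.0069 apart. Its difference was -0.20 ± 0.12 (adjusted p = 0.519), with a range of -0.31 to -0.084 when 1 array was left out. Robo4, a guidance receptor that stabilises vessels, gave -0.14 ± 0.12, from -0.24 to -0.042 when 1 array was left out. S1pr1, the receptor for sphingosine 1-phosphate, gave 0.0068 ± 0.0858. The 95% interval for S1pr1 ran from -0.21 to 0.23.

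Among 8 surface and caveola genes measured, Clec14a fell, Cd34 rose and 6 did not pass. Clec14a, a lectin-like receptor of endothelium, measured 10.18 and 10.42 in WT and 9.28 and 9.18 in SCD. The groups were 0.90 apart, with a difference of -1.07 ± 0.12 (2.1-fold lower; adjusted p = 0.0171). Without SCD replicate 1 or 2 the adjusted p was 0.148 or 0.175. Cd34, a sialomucin of capillary endothelium that blood progenitors and some stromal cells also carry, measured 11.30 and 10.99 in WT and 12.33 and 12.17 in SCD. Both SCD values lay above WT by 0.87 or more, and the difference was 1.11 ± 0.13 (2.15-fold higher; adjusted p = 0.0220). Without SCD replicate 1 or 2 the adjusted p of Cd34 was 0.186 or 0.147.

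Podxl, a relative of Cd34, measured 10.10 and 10.07 in WT and 10.45 and 10.65 in SCD, above WT without overlap (0.46 ± 0.10; adjusted p = 0.107). Emcn, a sialomucin of venous and capillary endothelium, overlapped between the groups (0.20 ± 0.20). Plvap, which forms the diaphragms of fenestrae and caveolae, measured 8.43 and 9.05 in WT and 7.77 and 7.75 in SCD. The WT arrays lay further from each other than the SCD arrays did, and both SCD values lay below WT. The difference of -0.98 ± 0.22 did not pass (adjusted p = 0.104). Without WT replicate 1 it passed, at -1.29 (adjusted p = 0.0380), and without WT replicate 2 it was -0.67 (adjusted p = 0.0805). Without SCD replicate 1 or 2 the adjusted p of Plvap was 0.380 or 0.398. Nostrin, an adaptor that binds endothelial nitric oxide synthase, lay at 12.54 and 12.82 in WT and 12.16 and 12.34 in SCD (-0.43 ± 0.12; adjusted p = 0.178). Cav1, the caveola protein also made by alveolar type 1 cells, and Ecscr, an endothelial surface protein, had differences of -0.12 ± 0.06 and -0.17 ± 0.08.

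Both secreted or matrix genes with a probe set of their own passed, in opposite directions. Mmrn2, an endothelial matrix protein of the EMILIN family that binds the receptor encoded by Clec14a, measured 8.77 and 8.73 in WT and 10.35 and 10.48 in SCD. The groups stood 1.59 apart, and the difference of 1.66 ± 0.10 (3.17-fold higher; adjusted p = 0.00565) was the largest of the 37 members in size. Without SCD replicate 1 or 2 it missed the threshold, with adjusted p of 0.0829 or 0.0997. The change in Mmrn2 relative to Clec14a within arrays was 2.73 log2 units.

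Esm1, a proteoglycan secreted by sprouting endothelial cells, measured 7.50 and 7.41 in WT and 6.74 and 6.65 in SCD, without overlap. Its difference was -0.76 ± 0.11 (1.7-fold lower; adjusted p = 0.0335). With the replicate number as a block the adjusted p of Esm1 was 0.0524, the highest of 11 settings whose lowest was 0.0115. It missed the threshold without any 1 array, with adjusted p of 0.107 and 0.0712 without WT replicate 1 and 2 and of 0.228 and 0.270 without SCD replicate 1 and 2.

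Scn7a, which encodes a sodium-sensing channel, had the smallest adjusted p of the 7 genes that fell. It measured 15.26 and 15.28 in WT and 14.25 and 14.19 in SCD, with groups 1.01 apart. The difference was -1.05 ± 0.06 (2.07-fold lower; adjusted p = 0.0058), and over 11 settings its adjusted p lay between 0.00067 and 0.0237. Without SCD replicate 1 or 2 it was 0.0829 or 0.0997. Scn7a is also expressed outside endothelium, in stromal cells among others. Of 16 fibroblast markers measured, Col3a1 and Col1a1 fell (by 1.11 and 0.64) and 0 rose, with a list mean of 9.67 and 9.91 in WT and 9.61 and 9.58 in SCD; their part in the Scn7a value was not tested. Tmem100, a membrane protein of arterial and capillary endothelium, measured 13.30 and 13.33 in WT and 13.06 and 12.73 in SCD (-0.42 ± 0.12; adjusted p = 0.188).

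The members without a probe set of their own can be read only together with the gene they share it with. The probe set of Cyyr1 and Gm2541 measured 9.87 and 9.92 in WT and 8.94 and 9.05 in SCD, without overlap. In limma over all 65956 transcript clusters its difference was -0.90 ± 0.12 (adjusted p = 0.0503), which did not pass. For both shared probe sets the adjustment ran over more tests than the 30701 genes used for the other members. Their adjusted p-values are therefore not like for like. The unadjusted p of the Cyyr1 probe set in limma was 0.000741, beside 0.000797 for Esm1, which was called. The probe set of Egfl7, a secreted protein of endothelium, and Mir126a, the endothelial microRNA encoded within it, measured 8.03 and 8.08 in WT and 7.87 and 7.95 in SCD (-0.15 ± 0.12; adjusted p = 0.67). The mature microRNA is shown, from RefSeq (GRCm38.p6, chr2:26591402-26591423, plus strand), because the value cannot be assigned to Egfl7 alone; capitals mark its seed.
mmu-miR-126a-3p: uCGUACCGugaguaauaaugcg

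Promoter sequences were at hand for 19 of the 37 measured members, 5 of them among the 9 called genes. They were read from the RefSeq promoter table (GRCm38.p6) as the 250 bases before the start of the gene, 5′ to 3′ on the gene's strand, and for a gene with several starts the first entry was used. They were searched on both strands for AGGAAG, a run common in sites of ETS factors such as Erg and Fli1, and for ACAAT, a run common in sites of SOX factors; these runs cannot overlap each other. The 5 called genes with an entry are shown, of which Calcrl, Clec14a, Scn7a and Esm1 fell and Cd34 rose. A link between these runs and the differences was not tested. Capitals mark either run on either strand.
Calcrl (chr2:84425267-84425516, minus strand): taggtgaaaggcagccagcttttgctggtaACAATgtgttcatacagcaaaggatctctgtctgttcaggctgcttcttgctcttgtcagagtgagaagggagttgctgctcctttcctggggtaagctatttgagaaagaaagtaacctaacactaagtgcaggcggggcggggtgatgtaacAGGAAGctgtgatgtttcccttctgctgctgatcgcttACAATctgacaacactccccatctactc
Clec14a (chr12:58269259-58269508, minus strand): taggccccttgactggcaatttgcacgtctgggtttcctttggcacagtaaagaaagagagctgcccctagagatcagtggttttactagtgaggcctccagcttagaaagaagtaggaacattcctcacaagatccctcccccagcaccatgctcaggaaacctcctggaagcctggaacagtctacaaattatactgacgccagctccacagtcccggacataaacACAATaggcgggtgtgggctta
Scn7a (chr2:66784911-66785160, minus strand): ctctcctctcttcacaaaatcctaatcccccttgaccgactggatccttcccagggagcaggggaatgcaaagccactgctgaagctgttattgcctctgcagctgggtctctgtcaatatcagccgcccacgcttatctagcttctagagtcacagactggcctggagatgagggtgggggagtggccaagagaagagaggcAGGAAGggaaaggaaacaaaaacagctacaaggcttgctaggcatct
Esm1 (chr13:113209409-113209658, plus strand): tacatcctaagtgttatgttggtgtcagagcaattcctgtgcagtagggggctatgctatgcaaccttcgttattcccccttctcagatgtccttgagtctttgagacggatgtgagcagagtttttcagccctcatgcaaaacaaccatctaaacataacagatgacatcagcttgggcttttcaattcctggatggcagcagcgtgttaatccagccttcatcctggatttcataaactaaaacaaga
Cd34 (chr1:194938571-194938820, plus strand): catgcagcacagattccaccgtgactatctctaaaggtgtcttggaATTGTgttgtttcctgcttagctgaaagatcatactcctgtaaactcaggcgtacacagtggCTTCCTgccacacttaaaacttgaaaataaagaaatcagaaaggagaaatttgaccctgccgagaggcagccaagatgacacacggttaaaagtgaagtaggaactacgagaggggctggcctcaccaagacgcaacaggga

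AGGAAG or its reverse CTTCCT stood in the promoters of Calcrl, Scn7a and Cd34, and ACAAT or its reverse ATTGT in those of Calcrl, Clec14a and Cd34. The Esm1 window held neither. Over the 19 members with an entry, 8 (42.1%) held AGGAAG, beside 29.2% of 27025 promoters of the same length, and 8 (42.1%) held ACAAT, beside 28.3%. These shares rest on few genes, and their difference was not tested. Among the 14 members with an entry that were not called, 5 (35.7%) held AGGAAG and 5 (35.7%) held ACAAT. A match describes these letters only and is no measured binding site.

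Other genes of the same compartments were taken from lists that leave out the 40 members. Of 19 other arterial genes, Efnb2, the ligand that marks arterial endothelium, fell by 1.54 ± 0.09 (adjusted p = 0.00609), 0 rose and 18 did not pass, with a median of -0.086. Efnb2 measured 11.37 and 11.41 in WT and 9.79 and 9.93 in SCD, without overlap. At an unadjusted p under 0.05 in limma, 3 of the 19 lay above WT and 3 below, Efnb2 among the latter. Of 21 other genes of the Notch pathway, limma called 0, with 2 at an unadjusted p under 0.05, Hes1 (0.71 ± 0.14) and Adam10 (0.33 ± 0.09), both above WT. The median of the Notch list was -0.0008.

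Of 16 other venous genes, Ackr3, a scavenging chemokine receptor, and Lyve1 rose (by 1.75 ± 0.18 and 0.92 ± 0.10), 0 fell and 14 did not pass. Ephb4, the venous receptor for the product of Efnb2, and the venous factor gene Nr2f2 gave -0.32 ± 0.13 and 0.10 ± 0.11. Of 17 other lymphatic genes, Lyve1 alone rose and 0 fell. Lyve1 encodes a hyaluronan receptor of lymphatic vessels that lung capillaries and some macrophages also carry. Pdpn, Flt4 and Mmrn1, other genes of lymphatic vessels, gave 0.20 ± 0.07, -0.03 ± 0.11 and 0.34 ± 0.15.

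Of 26 other junction genes, Ptprb and Tjp1 fell, Heg1 rose and 23 did not pass, with a median of 0.010. Ptprb, the phosphatase that associates with VE-cadherin, measured 14.39 and 14.54 in WT and 12.64 and 12.64 in SCD, a difference of -1.82 ± 0.08 (adjusted p = 0.00301). Tjp1, a scaffold of tight junctions, fell by 0.43 ± 0.06, and Heg1, a receptor that supports endothelial junctions, rose by 0.74 ± 0.07. Of 31 other endothelial transcription factor genes, Id1, a target of BMP signalling, rose by 1.18 ± 0.12, Epas1, a hypoxia-inducible factor, fell by 0.36 ± 0.05, and 29 did not pass. The ETS factor gene Ets1 lay at 10.13 and 10.12 in WT and 9.66 and 9.60 in SCD (-0.50 ± 0.09; adjusted p = 0.0608).

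Of 40 other pan-endothelial genes, 8 fell, 3 rose and 29 did not pass, with a median of -0.13. The angiopoietin receptor gene Tek fell by 1.94 ± 0.08 and the semaphorin gene Sema6a by 1.58 ± 0.15, while Ly6c1 and Adgrl4 rose by 1.53 ± 0.06 and 0.63 ± 0.06. Among 24 capillary genes, 10 fell, 3 rose and 11 did not pass, with a median of -0.31. Glp1r, the receptor for glucagon-like peptide 1, and Kit, the receptor for stem cell factor, fell by 3.31 ± 0.11 and 2.18 ± 0.09, whereas Car4, a carbonic anhydrase, and Apln, the ligand apelin, rose by 1.18 ± 0.09 and 0.92 ± 0.09. The lists share genes, Tek and Ptprb among them, and the difference between lists was not tested.

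**Figure D4:**
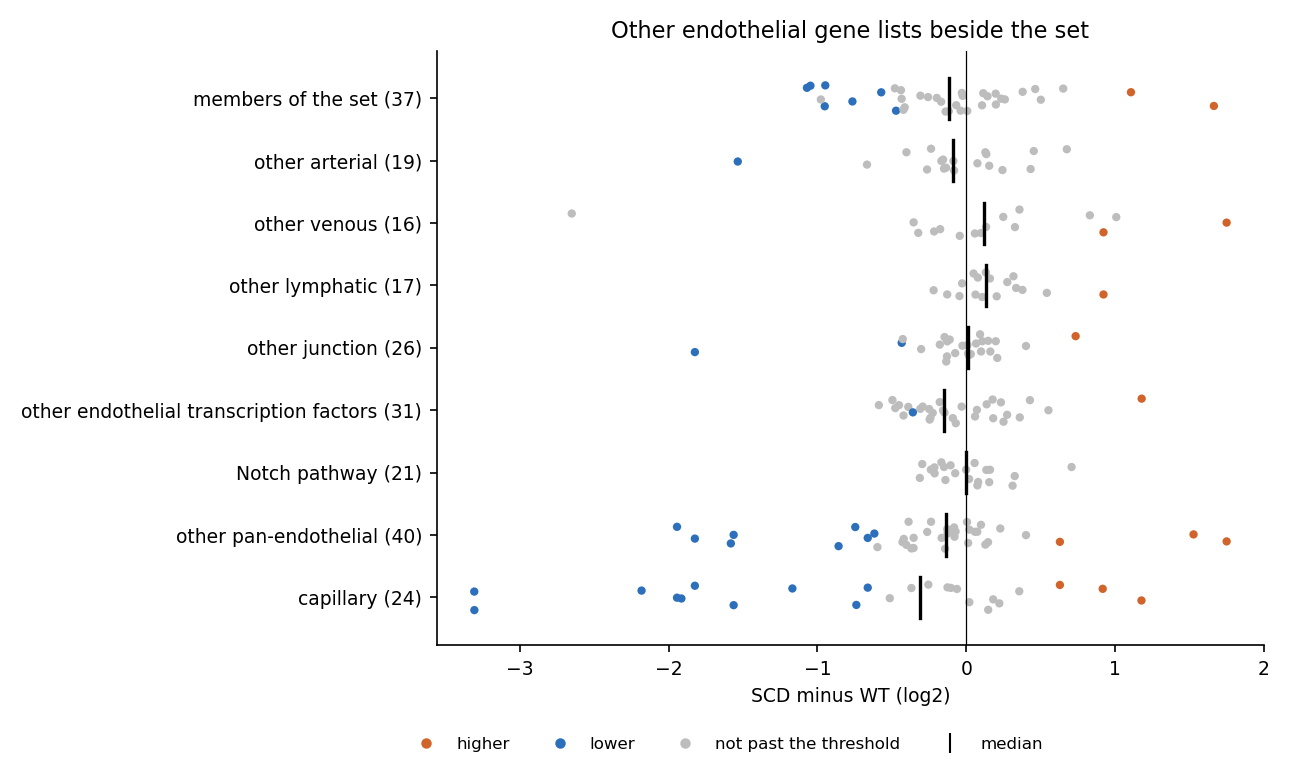
Differences between SCD and WT lung (log2) of the 37 measured members and of 8 other lists of endothelial genes, with the number of genes measured in brackets; 1 point is 1 gene, coloured where it passed an adjusted p of 0.05, and the bar is the list's median. Medians run from -0.31 (capillary genes) to 0.13 (other lymphatic genes), with -0.12 for the members.

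Markers of other cell types differed between the groups in part, among them those of blood cells, some of which also carry Pecam1, Fli1, Erg or Cd34. Of 18 leukocyte markers measured, 4 rose (S100a8, S100a9, Csf3r and Cd3e) and 0 fell, with a median of 0.37. Their list mean was 9.23 and 9.38 in WT and 9.90 and 9.91 in SCD. The common leukocyte marker Ptprc gave 0.33 ± 0.08 and did not pass. Of 14 platelet markers, Ppbp, Pf4 and Tubb1 rose and 0 fell, with a median of 0.25. Their list mean was 7.37 and 7.39 in WT and 7.99 and 7.95 in SCD. Of 10 erythroid markers, 6 rose (Alas2, of haem synthesis, by 3.52 ± 0.10) and 0 fell, with a median of 0.93 and a list mean of 7.05 and 7.03 in WT and 8.08 and 8.11 in SCD. Of 13 airway epithelium markers, 4 rose and 0 fell, with a median of 0.59 and a list mean of 11.69 and 11.95 in WT and 12.59 and 12.56 in SCD. Of 14 alveolar type 1 markers, which share Cav1 with endothelium, Igfbp2 and Scnn1g rose and 0 fell, with a list mean of 12.20 and 12.30 in WT and 12.45 and 12.45 in SCD. Among 14 alveolar type 2 markers, 3 rose (Il33, Lcn2 and Chil1), 0 fell and 11 did not pass, with a median of -0.027. Sftpc and Lyz2 in that list each had the same value on all 4 arrays. In the other lists, 1 of 16 smooth muscle and pericyte markers rose and 0 fell. For hepatocytes 2 of 12 markers and for mesothelium 1 of 9 fell, and 0 rose. The part of all these markers in the endothelial values was not tested.

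The arrays' control probes were not level between the groups: SCD minus WT was 0.20 for the median of exon controls and -0.18 for that of intron controls. With the exon control shift taken off the SCD values, which moved the median of all genes to -0.19, the median of the members was -0.31 and the same counts of 7 lower and 2 higher members were called. The share of calls over all genes that were higher went from 79.5% to 47.7% under that scaling. There the difference of Jam2, Jam3, Sox18 and S1pr1 turned below 0.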

How the data were processed

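Gene expression was measured in 2 WT and 2 SCD mouse lungs, grouped by sample title. The deposited table holds log2 values per probe set and array, normalized by the authors; RMA, a robust averaging of probes, is named in the submitters' processing notes beside the programs Partek and Affymetrix Expression Console, without versions, roles or order. The log2 scale follows from their range, 1.72 to 19.93. The array build is not given in the sources used here. Precision is limited by having 2 arrays per group.

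Of 65956 transcript clusters, 31258 were paired with 1 gene, 1492 with several and 33206 with none, after symbols were updated through the RefSeq table (GRCm38.p6). Where a gene had several, the probe set of highest mean over the 4 arrays stood for it, leaving 30701 genes. The comparison, SCD minus WT, used R 4.3.3 and limma 3.58.1 (lmFit, eBayes with intensity trend, group only, two-sided, Benjamini-Hochberg over all genes). No dim genes were removed. In 5 simulations for this comparison (30701 genes), a small share of genes was changed and variances were drawn from limma's fitted prior. There the fit recovered 17.8% of genes changed by 1 log2 unit and 85.4% of those changed by 2, with at most 10 false calls. Recovery depends on the share of genes changed, so these rates hold for that setting only. Members and lists were chosen with earlier results of these data known. All members were named; of other lists, up to 4 called genes per direction by p and the first 3 of cell type lists could be named; further genes were named after their values were seen. Some genes under that rule are not printed.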

Additional observations from a re-analysis of the deposited data

How the results depend on the processing

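Over 11 alternative settings with all 4 arrays, 2 or 3 members were called higher and 5 to 7 lower, and 645 to 1356 genes were called over all genes. The median difference of the members, -0.12, was -0.31 with the exon control shift removed. That setting takes 0.20 off every SCD value, so every difference drops by the same amount. The median of all genes moved alike, from 0.0019 to -0.19. The cause of the shift in the control probes was not tested. Leaving out each array in turn gave 0 to 786 called genes, 0 to 2 higher and 0 to 6 lower members, and a median of -0.18 to -0.084. The replicate numbers share only a label: deviations from the group means of same-numbered arrays correlated at -0.0022. With the replicate block limma called 968 genes, 2 higher and 6 lower members, and Esm1 lost its call. Directions turned only for members that did not pass: Jam2 (-0.082), Jam3 (-0.053), Sox18 (-0.090) and S1pr1 (-0.19) with the exon control shift removed, Fli1 (0.0072) and Gja4 (0.0019) with equal array medians, and Gja4 (0.0022) and S1pr1 (-0.014) with repeated quantile normalization. Leaving out each array in turn, the members whose direction turned ranged over -0.11 to 0.037 (Esam), -0.085 to 0.37 (Jam3), -0.21 to 0.17 (Fli1), -0.032 to 0.25 (Sox18), -0.094 to 0.036 (Gja4), -0.039 to 0.053 (S1pr1) and -0.096 to 0.49 (Emcn). Among members that kept their direction, Pecam1 ranged over 0.14 to 0.33, Jam2 over 0.0031 to 0.23, Prox1 over -0.12 to -0.018 and Tmem100 over -0.59 to -0.25.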

Other observations

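Some values beside the endothelial lists were chosen after they were seen. Nrp2, a co-receptor for vascular growth factors in the list of other venous genes, measured 7.00 on WT replicate 1 and 11.45 on WT replicate 2, against 6.64 and 6.51 on the SCD arrays, and its difference of -2.65 ± 1.40 did not pass limma (adjusted p = 0.439). Plxna2, a semaphorin receptor gene that lies next to Cd34 in the order of protein-coding genes of the RefSeq table (GRCm38.p6), measured 8.96 and 9.50 in WT and 10.73 and 10.69 in SCD (1.48 ± 0.19; adjusted p = 0.0262 in limma). Gzmk, a granzyme gene of T and NK cells next to Esm1 in that order, rose by 1.22 ± 0.12 (adjusted p = 0.0117 in limma), while Esm1 fell. Of the 4 nearest neighbours of Mmrn2 in that order, Sncg and Bmpr1a gave 0.57 ± 0.13 and 0.16 ± 0.09, Fam25c and 9230112D13Rik gave -0.87 ± 0.22 and -0.30 ± 0.23, and none passed (adjusted p from 0.109 to 0.59 in limma).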
